A study of Mus musculus with 10 samples.

Results

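The peptidylarginine deiminases are calcium-dependent enzymes that convert arginine residues of proteins into citrulline, which removes the positive charge of the side chain. The mouse genes Padi1, Padi2, Padi3 and Padi4 are described here, 4 genes chosen by symbol from the 19938 genes of the array after results of these data were known. Padi2 was singled out because it had the largest fall among the genes past the test in DKO pancreas, so its difference and those of the other 3 members between the groups are descriptions, without a test. Each of the 4 genes was represented by 1 transcript cluster with 1 gene symbol, and no filter on low values was applied.

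Padi1 acts mainly in epidermis and uterus, Padi3 in hair follicles and upper epidermis, where trichohyalin and filaggrin are substrates, and Padi4 in granulocytes, where it enters the nucleus and citrullinates histones during the release of extracellular traps. Padi2 has the widest expression of the family and is best known from brain, skeletal muscle, macrophages and secretory glands, with myelin basic protein and vimentin among its substrates. Padi6, the remaining gene of the family, is known from oocytes and was used only for comparison.

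Affymetrix Mouse Gene 1.0 ST arrays were used to measure total RNA of mouse pancreas, with 5 DKO and 5 control samples, all of mixed strain background. DKO pancreas carried a Pdx1-driven Cre transgene, a null allele of Mst1 (Mst1-/-) and a floxed allele of Mst2 (Mst2L/L), which removes the kinases that start the Hippo cascade. Mst1 was thus absent from all cells and Mst2 only from cells in which Cre had acted, since the Pdx1 promoter is active in pancreatic progenitors. The genotype of the control samples is given by no more than that word, and neither age nor sex is stated. Whether each array stands for a separate animal is not stated, so the p-values cover the spread between arrays, which may be technical. Levels are log2 intensities as deposited, and a difference of 1 is a doubling on that scale. Stk4, which codes for MST1, had nearly the same low level in DKO (5.13 ± 0.06) and control arrays (5.15 ± 0.09; SD, n = 5 each) and so gave no check of the genotype, and Stk3 (MST2) was not analysed here. Transcripts of hepatocytes stood high in DKO replicate 1, where 8 marker genes averaged 10.82, against 6.07 to 7.22 in the other DKO arrays and 6.12 to 7.0 in control arrays. The number of arrays limits the precision of every value.

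The promoter windows of the 4 genes are shown because the genes lie side by side on mouse chromosome 4 and 2 of them, Padi1 and Padi2, were high in the same control arrays. The sequences are from RefSeq (build GRCm38.p6) and run from 250 bases before to 50 bases after the transcript start, 5′ to 3′ on the strand of the gene. Capitals mark the GC box GGGCGG, the motif of Sp1, and the TATA box TATAAA, each searched on both strands. Padi2 lies on the plus strand at chr4:140906110-140906409, while Padi1 (chr4:140845729-140846028), Padi3 (chr4:140810599-140810898) and Padi4 (chr4:140774154-140774453) lie on the minus strand.
Padi2: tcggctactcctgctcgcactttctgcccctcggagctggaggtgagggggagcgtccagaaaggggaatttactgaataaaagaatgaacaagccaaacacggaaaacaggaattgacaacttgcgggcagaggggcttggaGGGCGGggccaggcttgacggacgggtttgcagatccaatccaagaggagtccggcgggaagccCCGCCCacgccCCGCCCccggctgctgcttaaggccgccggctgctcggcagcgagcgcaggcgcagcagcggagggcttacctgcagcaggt
Padi1: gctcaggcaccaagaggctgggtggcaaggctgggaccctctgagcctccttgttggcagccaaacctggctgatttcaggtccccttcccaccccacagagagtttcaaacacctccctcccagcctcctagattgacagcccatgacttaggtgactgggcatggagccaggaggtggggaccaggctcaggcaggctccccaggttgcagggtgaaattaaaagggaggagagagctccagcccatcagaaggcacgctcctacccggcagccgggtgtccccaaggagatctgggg
Padi3: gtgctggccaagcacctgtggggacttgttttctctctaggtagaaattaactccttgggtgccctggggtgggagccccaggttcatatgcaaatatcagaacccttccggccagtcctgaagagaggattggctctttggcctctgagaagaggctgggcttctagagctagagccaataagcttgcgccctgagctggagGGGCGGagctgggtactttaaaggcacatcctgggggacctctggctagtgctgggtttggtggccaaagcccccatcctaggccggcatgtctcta
Padi4: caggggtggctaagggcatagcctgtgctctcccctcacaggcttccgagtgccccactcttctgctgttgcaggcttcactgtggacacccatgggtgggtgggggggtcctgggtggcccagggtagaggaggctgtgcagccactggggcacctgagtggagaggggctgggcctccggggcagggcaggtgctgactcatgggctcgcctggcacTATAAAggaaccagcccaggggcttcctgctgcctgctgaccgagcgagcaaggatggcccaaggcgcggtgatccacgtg

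The Padi2 window held 22 CG dinucleotides and 3 GC boxes, and no TATA box. Padi1 had 3 CG dinucleotides, Padi3 had 4 and Padi4 had 8, against a median of 7 over all 32851 windows, of which 23.1% held as many as Padi2. The GC box was found once in the Padi3 window and in none of the other 2 relatives, and 35.7% of all windows held it. The only TATA box was in the Padi4 window, 31 bases before the start, and 13.6% of all windows held one. The TEAD motif GGAATG, to which the partners of YAP and TAZ bind, was searched on both strands as well. It was in none of the 4 windows and in 14.7% of all windows, so these letters are not in these stretches and nothing follows from that about binding elsewhere.

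Padi2 was the member furthest above background, and its level was lower in every DKO array than in any control array. Its level was 7.51, 7.87, 8.29, 8.0 and 8.36 in DKO replicates 1 to 5, against 8.84, 9.88, 9.99, 9.14 and 9.10 in control replicates 1 to 5. The DKO arrays spanned 7.51 to 8.36 and the control arrays 8.84 to 9.99, so the groups did not overlap. The mean was 8.01 ± 0.35 in DKO and 9.39 ± 0.51 in control (SD, n = 5 each), a difference of -1.39 ± 0.24 (SE), or 2.61-fold less RNA in DKO. Of the 4 members, Padi2 alone had groups that did not overlap, and over all genes 4.8% had such groups, 1.28% with every DKO array below every control array. By limma, 0.366% of all genes were called lower and 2.08% higher in DKO, and from these shares nothing is read about Padi2, since this contrast chose it. In bulk RNA, fewer cells of a type and less RNA per cell cannot be told apart.

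**Figure D1:**
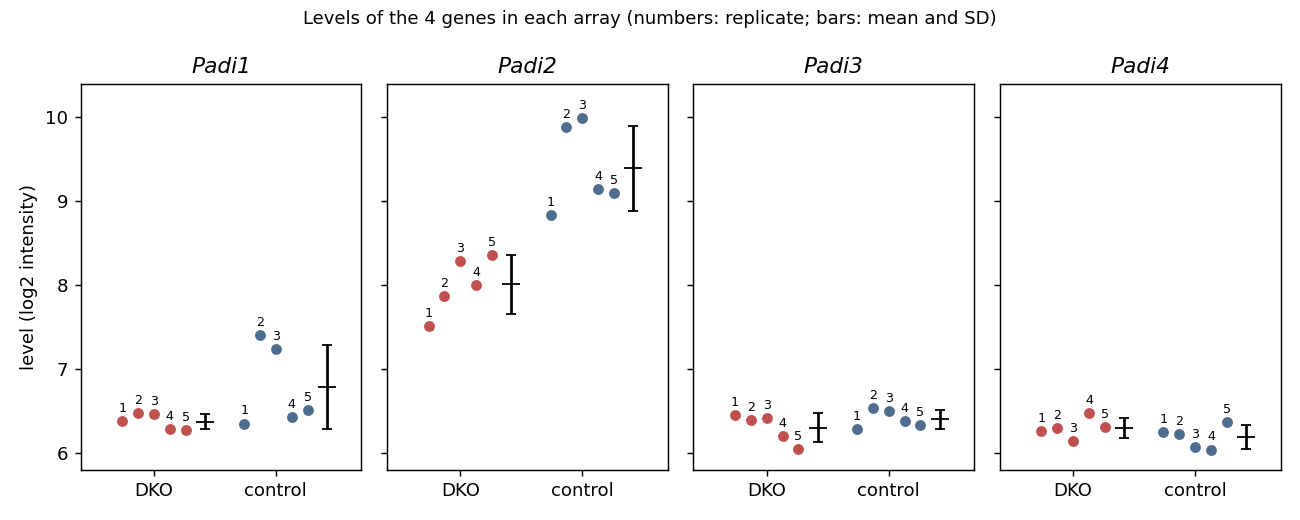
Level of Padi1, Padi2, Padi3 and Padi4 (log2 intensity, common axis) in each DKO and control array, with the replicate number above each point and the group mean with SD at its right. Padi2 lay between 7.51 and 8.36 in DKO and between 8.84 and 9.99 in control arrays, and control replicates 2 and 3 were the highest arrays for both Padi1 and Padi2.

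Padi2 was also variable within each group. In DKO only 4.62% of all genes had an SD as high, and in control 1.16% did. Within the DKO group the lowest array was replicate 1, the one with hepatocyte transcripts, and without it the difference was still -1.26. Within the control group replicates 2 and 3 stood 0.74 or more above all other arrays of the study. Without these 2 arrays, a choice made after seeing the data, the difference was -1.02, and the remaining control arrays (8.84, 9.14 and 9.10) still lay above every DKO array. The X-inactivation transcript Xist, a sign of female tissue, stood high in DKO replicates 1 and 4 and in control replicates 2, 3 and 4, and with the Xist level as a covariate the difference was -1.36.

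Padi1 shared with Padi2 the high values of control replicates 2 and 3. Its level was 6.38, 6.47, 6.46, 6.29 and 6.27 in DKO replicates 1 to 5, against 6.35, 7.41, 7.24, 6.43 and 6.51 in control replicates 1 to 5. Control replicates 2 and 3 were high and the other 3 control arrays lay in or close to the DKO range, so the groups overlapped. The mean was 6.37 ± 0.09 in DKO and 6.79 ± 0.50 in control (SD, n = 5 each), a difference of -0.41 ± 0.20 (SE). Without control replicates 2 and 3 it was -0.05. Only 1.26% of genes had as high an SD in control, whereas 70.5% did in DKO.

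Padi3 and Padi4 differed little. Padi3 had levels of 6.45, 6.39, 6.42, 6.20 and 6.05 in DKO replicates 1 to 5, against 6.28, 6.53, 6.50, 6.38 and 6.33 in control replicates 1 to 5, with a difference of -0.10 ± 0.09 (SE). The groups overlapped, and the lowest values were in DKO replicates 4 and 5. Padi4, the granulocyte enzyme, had levels of 6.26, 6.30, 6.14, 6.48 and 6.31 in DKO replicates 1 to 5, against 6.25, 6.22, 6.07, 6.04 and 6.37 in control replicates 1 to 5. The difference was 0.11 ± 0.08 (SE), and here too the groups overlapped. Padi6 stood at 5.27 ± 0.05 in DKO and 5.32 ± 0.07 in control (SD, n = 5 each; difference -0.05, limma adjusted p = 0.646).

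How far these signals stood above background was judged from 1027 olfactory receptor genes, most of which are silent outside the nose. Their mean levels had a median of 4.37 and a 95th percentile of 6.12. Over all 10 arrays 2.63% of them were as bright as Padi1, 3.41% as Padi3, 3.89% as Padi4 and 18.2% as Padi6, against 0.195% for Padi2. Since probes differ in brightness, this is a rough guide. Padi6 lay in the range of these receptors and Padi3 and Padi4 at its upper edge. Outside control replicates 2 and 3, Padi1 (6.27 to 6.51) was close to that edge too. At such levels a difference in RNA could be compressed.

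The Padi genes form 1 cluster on chromosome 4, with Padi6, Padi4, Padi3, Padi1 and Padi2 in that order and no other measured gene between them. Among the 20 measured neighbours, 10 on each side, 2 had an unadjusted p under 0.05, a share not counted over all genes. By limma 1 was lower and 0 were higher in DKO, where 2.44% of all genes were called. The one called was Atp13a2, a lysosomal polyamine transporter, the second gene beyond Padi2. It had 8.93, 8.90, 9.05, 8.91 and 9.0 in DKO replicates 1 to 5, against 9.15, 9.24, 9.30, 9.33 and 9.23 in control replicates 1 to 5. The groups did not overlap, and the difference was -0.29 ± 0.05 (SE, limma adjusted p = 0.0147). The call ended without control replicates 2 and 3 together (0.139). Sdhb, a subunit of succinate dehydrogenase and the gene next to Padi2, differed by -0.11 ± 0.06 (SE, limma adjusted p = 0.399). Rcc2, a regulator of mitosis and the nearest gene on the Padi6 side, differed by -0.14 ± 0.07 (SE, limma adjusted p = 0.363). The remaining 17 neighbours lay between -0.22 and 0.29, with Klhdc7a highest.

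**Figure D2:**
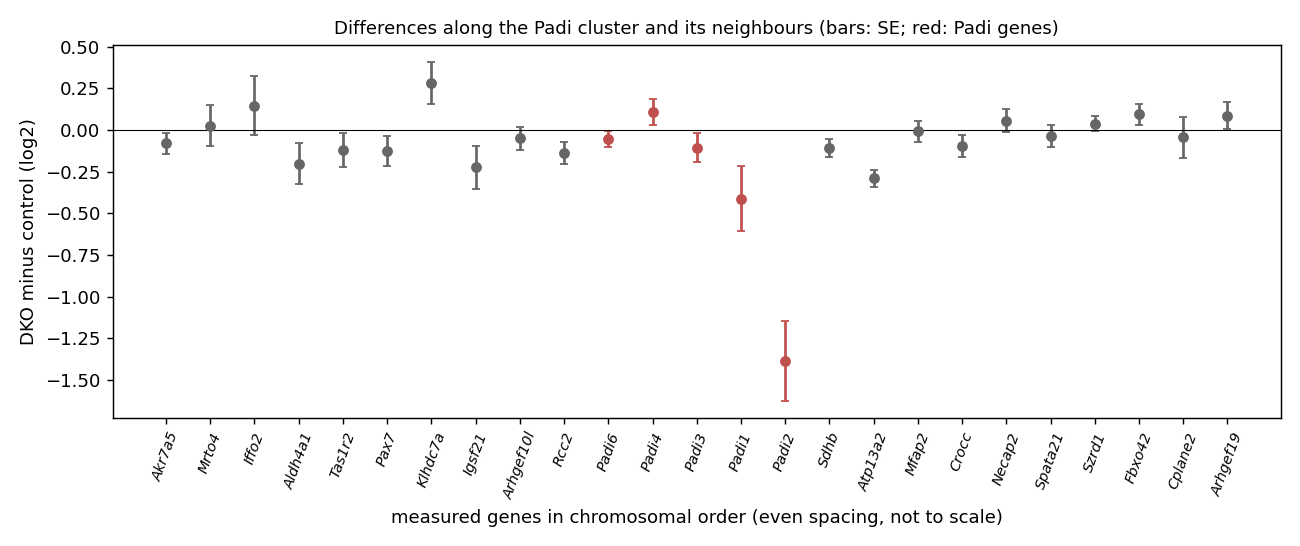
Difference in level between DKO and control (log2, bars SE) for the 5 Padi genes, in red, and the 10 measured genes on each side, in chromosomal order with even spacing. Padi2 stood at -1.39 and Padi1 at -0.41, while the 20 neighbours lay between -0.29 and 0.29.

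A rise of at least 0.7 in control replicates 2 and 3, as in Padi1 and Padi2, was shared by few other genes. Over all 19938 genes, 6 had both of these arrays at least 0.7 above or below all 8 others, and in all 6 they were above. They were Ctrc (gap 3.72), Gal (1.07), Gpx3 (0.78), Padi2 (0.74), Capn11 (0.73) and Padi1 (0.72), named after their values were seen. The cutoff of 0.7 lay just under the gap of Padi1, and genes with smaller gaps of the same kind were not counted. The islet gene Chga, for example, had 12.29 and 12.33 in these arrays, against at most 11.99 in the others. Ctrc, the digestive protease chymotrypsin C, lies on the same chromosome, 27 measured genes beyond Padi2. Within 100 measured genes on each side of Padi2, only Padi1, Padi2 and Ctrc had a gap of at least 0.7. Ctrc had 7.57, 8.24, 8.11, 7.50 and 8.38 in DKO replicates 1 to 5, against 7.92, 12.41, 12.33, 8.60 and 8.28 in control replicates 1 to 5. Apart from control replicates 2 and 3, the Ctrc groups overlapped, which Padi2 groups did not. Gal, which codes for the neuropeptide galanin, had 7.31, 7.71, 7.99, 7.13 and 8.44 in DKO replicates 1 to 5, against 8.06, 10.38, 10.45, 9.31 and 8.67 in control replicates 1 to 5. Its difference was -1.66 ± 0.45 (SE, limma adjusted p = 0.0942).

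**Figure D3:**
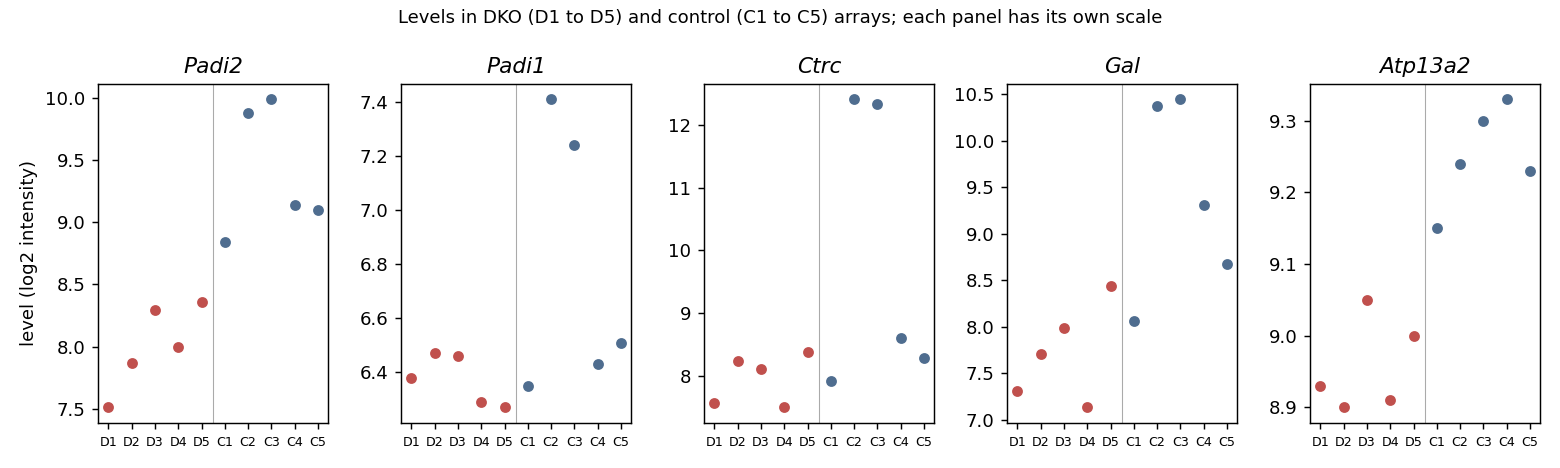
Levels (log2 intensity, a separate scale for each gene) of Padi2, Padi1, Ctrc, Gal and Atp13a2 in the 5 DKO (D1 to D5) and 5 control (C1 to C5) arrays. Control replicates 2 and 3 were the highest arrays for Padi2, Padi1, Ctrc and Gal, and for Atp13a2 they were not.

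Genes whose pattern was most like that of Padi2 were sought among those brighter than 95% of the olfactory receptor genes, by Pearson's r. Over the levels in all 10 arrays, which include the difference between the groups, the closest were Tomm6 (r = 0.971), a subunit of the mitochondrial import pore, Sgsm3 (0.963), Copz2 (0.962), a coatomer subunit, 4930444G20Rik (0.961) and the claudin gene Cldn10 (0.959). Over the deviations of the 10 arrays from their group means the closest were Sh3pxd2a (r = 0.948), a scaffold of invadopodia, Zup1 (0.934), D130020L05Rik (0.933), Tomm6 (0.912) and Gal (0.905). Tomm6 was in both sets. Zup1 had r = -0.251 over the levels, and its difference of 0.17 between the groups was opposite to that of Padi2 (limma adjusted p = 0.267). With so many genes and 10 arrays, high values of r occur without any link, and they are given as a description.

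The setting of citrullination was described by 6 lists with 97 genes, of which 89 were measured, and 3 were higher and 3 lower in DKO. Over all genes 2.08% were called higher and 0.366% lower, and the median difference was -0.0064. Among 21 measured genes of proteins known to be citrullinated 1 rose and 0 fell, with a list median of 0.05, where 2.08% of all genes rose and 0.366% fell. The one that rose was Cxcl12, a chemokine that loses activity on citrullination, at 10.13 ± 0.23 in DKO and 8.68 ± 0.17 in control (SD, n = 5 each; difference 1.45 ± 0.12 SE, limma adjusted p = 0.000139). Col2a1, a cartilage collagen, and Fn1, fibronectin, had the next smallest p-values and differed by -0.16 and 0.18 (limma adjusted p = 0.387 and 0.447). Vim, which codes for the Padi2 substrate vimentin, differed by 0.05 (limma adjusted p = 0.682), and Mbp, myelin basic protein, by -0.06 (0.635). The fibrinogen genes Fga, Fgb and Fgg and the antithrombin gene Serpinc1, all made in liver, had differences of 0.63 to 1.14 with none past the test, and their DKO SDs of 1.63 to 2.44 came with the hepatocyte transcripts of DKO replicate 1, whose part was not tested.

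Calcium switches the deiminases on, and 2 of 13 measured calcium supply genes fell while 0 rose (list median -0.05), where 0.366% of all genes fell and 2.08% rose. Orai2, a store-operated calcium channel, had 8.83, 8.92, 8.89, 8.61 and 8.86 in DKO replicates 1 to 5, against 9.35, 9.32, 9.44, 9.38 and 9.42 in control replicates 1 to 5 (difference -0.56 ± 0.06 SE, limma adjusted p = 0.00111). Cacna1a, the pore of a voltage-gated calcium channel, had 8.35, 8.39, 8.39, 8.57 and 8.58 in DKO replicates 1 to 5, against 9.03, 9.22, 9.17, 9.04 and 8.95 in control replicates 1 to 5 (difference -0.63 ± 0.07 SE, limma adjusted p = 0.00111). In both genes every DKO array lay below every control array, and neither had the gap of at least 0.7 in control replicates 2 and 3. In Cacna1a these arrays were still the highest, at 9.22 and 9.17, with 9.04 next. Calm2, a calmodulin gene, had the next smallest p-value of this list and differed by 0.12 (limma adjusted p = 0.278).

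Free citrulline and arginine are handled by enzymes other than the deiminases. Of 20 measured genes of this list 1 rose and 0 fell (median 0.00), where 2.08% of all genes rose and 0.366% fell. Ddah2, a relative of the enzyme that releases citrulline from methylated arginine, rose by 0.39 ± 0.08 (SE, limma adjusted p = 0.0234), a call that ended when DKO replicate 1, 4 or 5 or control replicate 1, 2, 3 or 4 was dropped (adjusted p at most 0.0703, with control replicate 3 dropped), and without moderated variance (0.0598). Gatm, the first enzyme of creatine synthesis, differed by -0.24 (0.167) and Odc1, the first enzyme of polyamine synthesis, by -0.25 (0.252). Methylation competes with citrullination for protein arginine, and none of 12 measured genes of that list passed limma or an unadjusted p of 0.05. Their differences ran from -0.13 to 0.20, with Prmt2 highest (limma adjusted p = 0.431), followed by Prmt5 (0.12, 0.456) and Ndufaf7 (0.10, 0.438).

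Padi2 is raised by estrogen in the pituitary and uterus of rodents and by EGF in canine mammary cells. Of 9 measured hormone and EGF system genes 1 rose and 1 fell (median 0.07), where 2.08% of all genes rose and 0.366% fell. A higher mean in DKO was found for 8 of the 9 and an unadjusted p under 0.05 for 5, shares not counted over all genes. Erbb2, a receptor kinase of the EGF family, rose by 0.38 ± 0.07 (SE, limma adjusted p = 0.0204), and Egf itself fell by 0.54 on the log2 scale (SE 0.12, limma adjusted p = 0.0445). The Erbb2 call ended without DKO replicate 1 (0.0518), without control replicate 2 (0.0589) and without moderated variance (0.0519). The Egf call ended when any array other than DKO replicates 3 and 5 was dropped (at most 0.104), without moderated variance (0.113) and with Xist as covariate (0.0686). Erbb3 had 0.30 ± 0.07 (SE) and just missed the threshold (limma adjusted p = 0.0521). The receptor genes Egfr and Erbb4 differed by 0.36 and 0.31 (limma adjusted p = 0.0662 and 0.169). The estrogen receptor gene Esr1 differed by 0.03 (limma adjusted p = 0.899).

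Of the 14 neutrophil and extracellular trap genes, the setting in which Padi4 is best known, 0 passed limma and 5 had an unadjusted p under 0.05. Over all genes limma called 0.366% lower and 2.08% higher. All 14 had a lower mean in DKO, with a list median of -0.55, where the median over all genes was -0.0064. The shares of all genes with a lower mean or an unadjusted p under 0.05 were not counted. Ngp, a neutrophil granule protein, differed by -1.06 ± 0.50 (SE, limma adjusted p = 0.352), with 11.04, 8.78, 7.93, 10.06 and 9.41 in DKO replicates 1 to 5, against 10.47, 10.18, 10.91, 11.09 and 9.87 in control replicates 1 to 5. The spread among DKO arrays was wide and the Ngp groups overlapped. The mean of the 14 genes was 7.73 in DKO replicate 1, the array with hepatocyte transcripts. It was 6.40 to 7.08 in the other DKO arrays and 7.14 to 7.88 in control arrays. The granule proteases Ctsg, Elane and Prtn3 had the smallest p-values of the list and differed by -0.54, -0.55 and -0.31 (limma adjusted p = 0.197, 0.249 and 0.293). Padi4 did not share this direction, with a difference of 0.11.

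**Figure D4:**
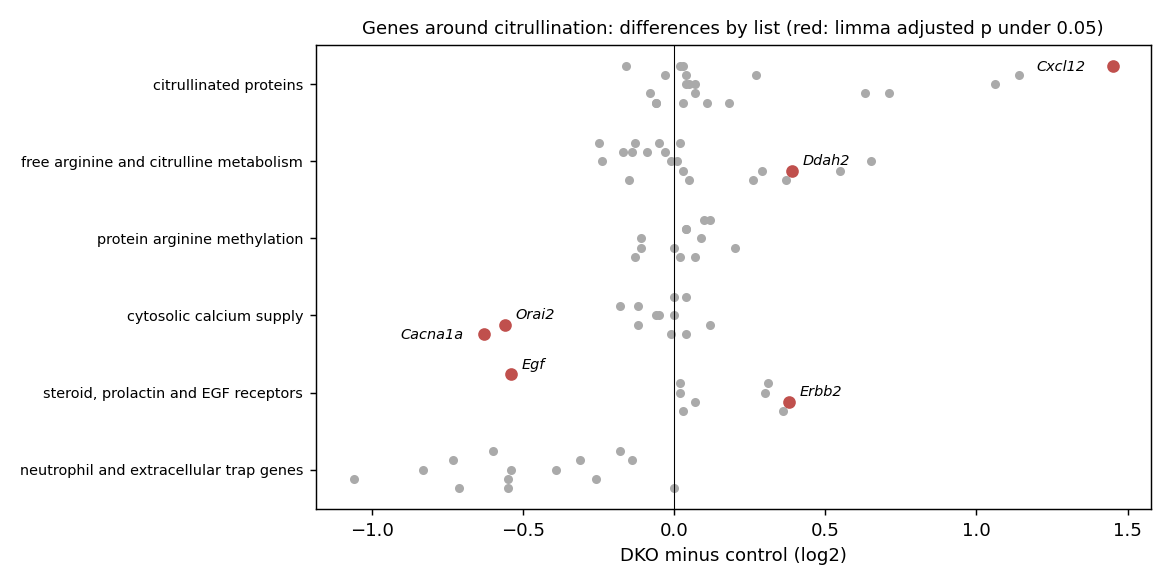
Difference in level between DKO and control (log2) for the 89 measured genes of the 6 lists around citrullination, with genes past a limma adjusted p of 0.05 in red and named. The 3 higher genes were Cxcl12, Erbb2 and Ddah2, the 3 lower ones were Cacna1a, Orai2 and Egf, and the neutrophil genes all lay at or below 0.

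Markers of cell types that could carry Padi2 were compared as list means per array. The means of 8 acinar genes, the enzyme-secreting cells that form most of the organ, were 11.40 to 11.97 in DKO and 11.97 to 12.20 in control arrays. Of these genes 1 was lower (Rbpjl, difference -0.45, limma adjusted p = 0.0225) and 0 higher, where 0.366% of all genes were called lower and 2.08% higher. The lowest acinar mean was in DKO replicate 1, the array with hepatocyte transcripts, and the other DKO arrays had 11.79 to 11.97. The acinar genes Cpa1, Cel and Ctrb1 lay between 13.27 and 13.73, near the highest value of all arrays (13.94). At such levels a difference in RNA could be compressed. The means of 9 islet genes were 10.63 to 10.75 in DKO and 10.80 to 10.93 in control, with 0 called by limma. Those of 6 duct genes were 9.46 to 9.83 in DKO and 9.09 to 9.38 in control, with 3 called higher (Krt7, Krt19 and Cldn4) and 0 lower. Of the duct genes, 4 had a higher and 2 a lower mean in DKO. The lower ones were Sox9 (-0.26, limma adjusted p = 0.149), whose groups did not overlap, and Car2 (-0.34, 0.760). The 5 measured genes of Schwann cells and oligodendrocytes averaged 6.86 to 6.99 in DKO and 7.01 to 7.22 in control, with 2 of the 5 in the range of olfactory receptors, and 10 macrophage genes 8.81 to 9.22 in DKO and 8.79 to 9.22 in control. Of the macrophage genes, 8 had a higher and 2 a lower mean in DKO. Their differences ran from -0.46 in C1qa (limma adjusted p = 0.0556) to 0.33 in Mrc1 (0.238). Skeletal muscle (6.18 to 6.40 in DKO and 6.25 to 6.42 in control, 10 genes) and keratinocyte genes (6.12 to 6.33 in DKO and 6.17 to 6.29 in control, 7 genes) were dim in both groups, with 5 and 3 of them in the range of olfactory receptors. The acinar, islet and Schwann cell means were lower in DKO as Padi2 was, and the duct mean was higher, and their part in the Padi2 difference was not tested. The median differences of single genes were -0.23 for acinar, -0.14 for islet, -0.21 for Schwann cell and 0.45 for duct genes. An unadjusted limma p under 0.05 was found for 2 acinar, 2 islet, 5 duct, 3 Schwann cell and 4 macrophage genes. It was found for 0 skeletal muscle and 0 keratinocyte genes, and the share over all genes was not counted.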

How the data were processed

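The 10 pancreas arrays had been processed by the authors with Affymetrix Expression Console, per the submitters' processing notes, and neither its version nor the steps of background correction, summarization and normalization are named there. In the deposited table each transcript cluster has 1 log2 intensity per sample. Their range was 2.79 to 13.94 and array medians were 7.12 to 7.15, so they were used as deposited, without further scaling or filter. By the platform annotation 21789 of 35556 clusters had 1 gene symbol, 1621 several and 12146 none here. The first were used, with symbols updated through gene identifiers (21698 found in a RefSeq table of GRCm38.p6) and the brightest cluster kept per gene, which left 19938 genes. Chromosomal order came from that table, since the labels name no build.

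DKO was set against control in a linear model of all 10 arrays (limma 3.58.1, R 4.3.3; moderated variance, two-sided, Benjamini-Hochberg over all genes, threshold 0.05). SEs are from this fit. It was also run on simulated data with independent noise in each gene and array. Such data hold no effect shared by many genes of an array, so that run does not vouch for the calls here. The members and lists were chosen with earlier results of these data known. The named genes were the members, Padi6, Stk4, up to 3 genes of each list with the smallest p, called and nearest neighbours, and the 5 genes most like Padi2 by each measure. Vim, Mbp, Esr1, the liver genes, Ngp, Klhdc7a, Chga, Sox9, Car2, the called marker genes and the genes of the gap between arrays were named after their values were seen. So were Egfr, Erbb4, C1qa, Mrc1, Cpa1, Cel and Ctrb1. The labels state no pairing by replicate number, and the main model used none. The alternatives were other normalizations, a filter on dim genes, other variance models, the mean of a gene's clusters, leaving out arrays, a replicate block and Xist as covariate.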

Additional observations from a re-analysis of the deposited data

Results flagged for a closer look

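Among 53 genes checked, 6 values stood far from the other arrays of their group, 5 of them in DKO replicate 1. The liver genes entered this check after their values were seen, so their flags follow from that choice. In that array, which held the hepatocyte transcripts, the liver genes Fga (9.20), Fgb (11.40), Fgg (10.58) and Serpinc1 (10) stood above all 4 other DKO arrays. Prtn3, a neutrophil granule protease, had a level of 6.56 there, against 6.09 to 6.22 in the other 4 DKO arrays. Serpinc1 also stood out in control replicate 2, at 6.30. The gap was judged by Dixon's 95% criterion in 106 groups of 5 arrays, and chance flags about 1 in 20 groups. That rate does not hold for genes picked by their values, so the number of flags is not read against it. No value of Padi1, Padi2, Padi3 or Padi4 met the criterion, which does not catch a pair of high arrays such as control replicates 2 and 3.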

How the results depend on the processing

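The Padi2 difference lay between -1.52 and -1.24 on leaving out any 1 array and was -1.43 after quantile normalization again or subtraction of array medians. That of Padi1 lay between -0.52 and -0.26, of Padi3 between -0.14 and -0.04 and of Padi4 between 0.06 and 0.16. The replicate block left the Padi2 difference at -1.39. Same-numbered arrays deviated with r of -0.27 to 0.29, and 0 of 5 DKO arrays were closest to their own number. No pairing was seen, but so few values cannot exclude one. The deposited values gave 414 genes higher and 73 lower. Of these counts, the higher one was 271 after subtraction of medians, 264 without moderated variance and 162 with the block, and the lower one was 125 after quantile normalization again, 34 without moderated variance, 16 with the block and 46 with Xist as covariate. Leaving out single arrays gave 232 to 372 higher and 28 to 64 lower. Of the list genes, 1 was higher without moderated variance and 1 with the block, in place of 3, and 1 to 4 higher and 2 to 3 lower without single arrays. The block ended the calls of Atp13a2 (adjusted p = 0.0898), Ddah2 (0.0756) and Erbb2 (0.0765). Of the neighbours, 0 were lower with the block, and 1 lower and 0 higher without any single array. Leaving out control replicates 2 and 3 together, added after seeing the data, gave 112 genes higher and 4 lower, 1 list gene higher, 0 neighbours lower and a Padi1 difference of -0.05. Without these 2 arrays the calls of Ddah2 (0.177), Erbb2 (0.139) and Egf (0.256) ended in a fit with fewer samples, with differences of 0.37, 0.31 and -0.43. Cxcl12, Orai2 and Cacna1a kept their calls in all alternatives run.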
